A study of Rattus norvegicus with 42 samples.

Results

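The 7 subunits of respiratory complex I that are encoded in mitochondrial DNA (Mt-nd1, Mt-nd2, Mt-nd3, Mt-nd4l, Mt-nd4, Mt-nd5 and Mt-nd6) were followed in rat GH4C1 cells with and without the long non-coding RNA Neat1. They were chosen by gene identity, from 13776 genes in the deposited count tables, and all 7 were present in both tables. GH4C1 is an established line of pituitary somatolactotrophs, cells of the growth hormone and prolactin lineage. Wild-type cells (WT, genotype wild type, no treatment) and knockout cells (KO, genotype Neat1 -/-, made with CRISPR-Cas9) were synchronised by a change to fresh medium. RNA was taken 10, 14, 18, 22, 26, 30 and 34 h later (T10 to T34, written ZT in the sample labels), with 3 replicates at each time and 42 libraries in all. Whether the KO cells were 1 clone, and whether replicates were separate cultures, is not given in the sources used here, so p-values measure the spread between these libraries, which may be technical.

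Complex I takes electrons from NADH, passes them to ubiquinone and moves protons across the inner mitochondrial membrane. Its mitochondrially encoded subunits form the core of the arm that lies in the membrane, and all other subunits are made from nuclear genes. Both strands of mitochondrial DNA are copied into long transcripts that are then cut into single RNAs. One strand gives the RNAs of Mt-nd1, Mt-nd2, Mt-nd3, Mt-nd4l, Mt-nd4 and Mt-nd5, in that order and with the ribosomal RNAs in front of them. Mt-nd6 is the only one of the 7 on the light strand, opposite to the others. Mt-nd4l and Mt-nd4 overlap slightly and are known to share 1 messenger RNA. In pituitary cells, as in other cells, complex I feeds the respiratory chain that supplies ATP.

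The total was 34.5 to 68.8 M counts per WT library and 45.9 to 60.5 M per KO library (M, mega). Levels are given as CPM, counts relative to a library size corrected by TMM factors, which were 1.08 to 1.17 in WT and 0.88 to 0.95 in KO. Identifiers could not be paired with symbols, so Neat1 itself, the pituitary markers and the nuclear complex I genes were not analysed here. Genotype and cell type therefore rest on the sample labels alone. The library WT T34 replicate 1 stood apart from all other WT libraries for the 7 genes, and results that rest on it are given with and without it. Over genes with at least 50 counts, its chi-square per degree of freedom against replicates 2 and 3 was 694.4 and 375. In every other replicate pair of the series this value was 54.27 or less. A CPM value is a level within 1 gene and is not compared between genes, because no gene lengths were available. How reads from overlapping genes, from the opposite strand or from nuclear copies of mitochondrial DNA were counted is not given in the sources used here, so the levels of Mt-nd4l, Mt-nd4 and Mt-nd6 in particular are uncertain.

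The 7 genes together held a small share of each library, and that share was larger in KO. Their summed counts were 0.0760% to 0.117% of the library in 20 WT libraries, 0.640% in WT T34 replicate 1, and 0.144% to 0.279% in the 21 KO libraries. WT T34 replicate 1 was thus the highest of the 42 libraries, and the other 20 WT libraries were below all KO libraries. In bulk RNA, more cells with a transcript and more of the transcript per cell cannot be told apart. Of the 7 genes, 6 were called higher in KO averaged over the 7 times, and 0 lower (edgeR quasi-likelihood test, adjusted p under 0.05 over all genes). Over all genes 43.4% were called higher and 44.7% lower in this comparison, so a call alone says little here and the sizes are the result. The median log2 fold change was 2.34 over the 7 genes and -0.01 over all genes, and the median absolute log2 fold change over all genes was 0.46.

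**Figure D1:**
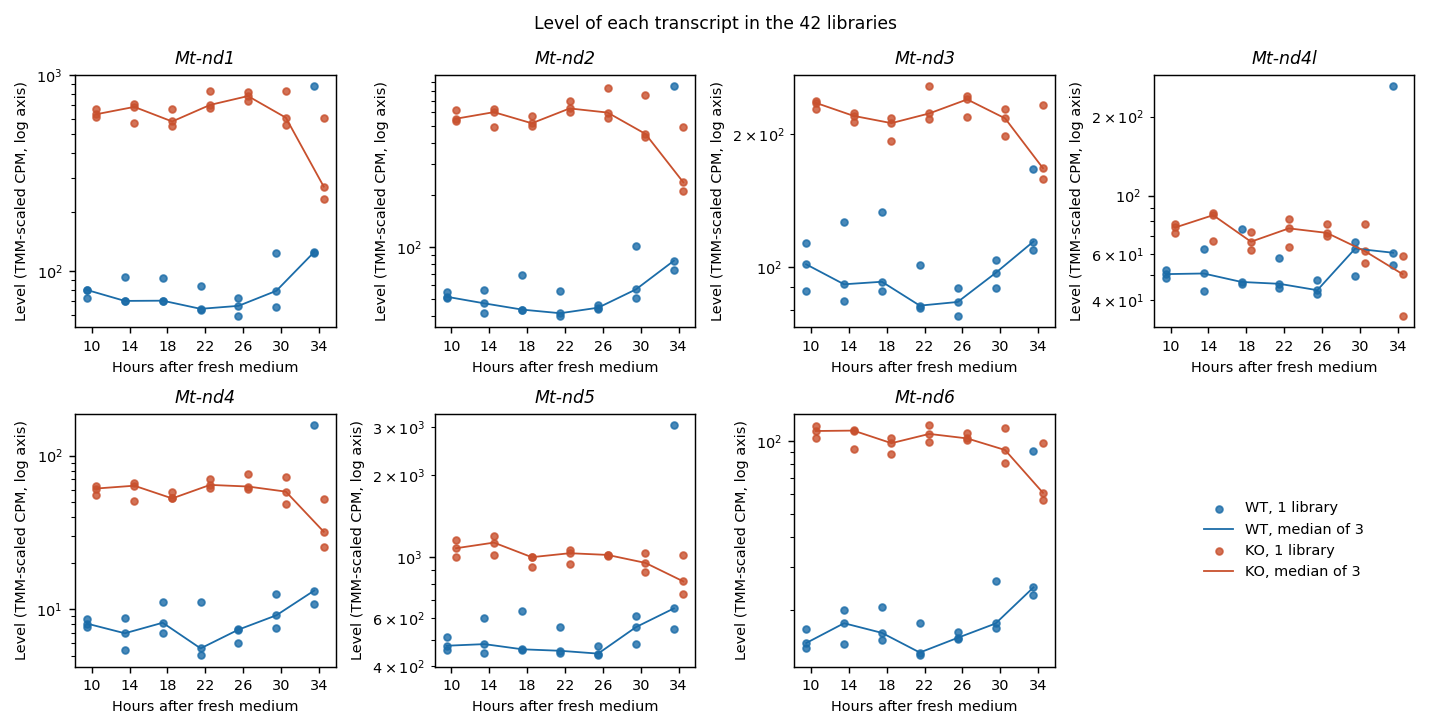
Level of each gene in TMM-scaled CPM (y axis, log scale, its own range in each panel) against hours after fresh medium (x axis). Each point is 1 library and the line joins the medians of the 3 replicates, WT in blue and KO in red. KO lies above WT until T30 for all genes but Mt-nd4l, and at T34 the groups meet, with WT T34 replicate 1 the highest WT point.

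Mt-nd2, Mt-nd4 and Mt-nd5 encode the 3 antiporter-like subunits, which form proton channels along the membrane arm. The level of Mt-nd2 (ENSRNOG00000031033) was lowest at 39.97, median 50.9 and highest at 852 CPM in WT, and was lowest at 211, median 555 and highest at 834 CPM in KO. With WT T34 replicate 1 left out the highest WT level was 102 CPM, and the groups did not overlap. Mt-nd2 had the largest log2 fold change of the 7 genes in KO against WT over all times, 2.99 (SE 0.20, edgeR adjusted p 1.97e-15), or 7.95-fold. Leaving out WT T34 replicate 1 made it 3.29 (SE 0.10).

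Mt-nd4 (ENSRNOG00000029707) rose by a smaller factor than Mt-nd2, 5.35-fold over all times. It was lowest at 5.03, median 8.07 and highest at 158 CPM in WT, and lowest at 25.6, median 60.3 and highest at 75.7 CPM in KO. Apart from WT T34 replicate 1, no WT library was above 13.2 CPM. The log2 fold change was 2.42 (SE 0.20, edgeR adjusted p 8.30e-13) with all libraries and 2.76 (SE 0.09) without that one.

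Mt-nd5 (ENSRNOG00000029971), which forms the far end of the membrane arm, rose less. It was lowest at 439, median 481 and highest at 3047 CPM in WT, and lowest at 737, median 1021 and highest at 1199 CPM in KO. Leaving out WT T34 replicate 1, the highest WT level was 650 CPM, below every KO library. The log2 fold change was 0.79 (SE 0.12, edgeR adjusted p 2.82e-07) with all libraries and 0.97 (SE 0.05) without that library.

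The other 4 genes encode the part of the membrane arm nearest to the NADH-oxidising arm. Mt-nd1 (ENSRNOG00000030644) helps to form the ubiquinone site at the junction of both arms. Its level was lowest at 59.2, median 73.0 and highest at 880 CPM in WT, and lowest at 233, median 673 and highest at 827 CPM in KO. WT T34 replicate 1 aside, no WT library was above 125 CPM. The log2 fold change was 2.70 (SE 0.17, edgeR adjusted p 2.96e-16), or 6.48-fold, and 2.92 (SE 0.09) without that library.

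Mt-nd6 (ENSRNOG00000029042), the light-strand gene, encodes a subunit of the same region whose helices couple electron transfer to proton pumping. It was lowest at 13.0, median 16.6 and highest at 90.8 CPM in WT, and lowest at 57.0, median 102 and highest at 116 CPM in KO. The next highest WT library was at 26.3 CPM, so the groups were apart except for WT T34 replicate 1. The log2 fold change was 2.34 (SE 0.11, edgeR adjusted p 7.02e-19), or 5.08-fold, and 2.48 (SE 0.07) without that library.

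Mt-nd3 (ENSRNOG00000033615), a small subunit with a flexible loop at the junction, rose by a smaller factor. It was lowest at 77.6, median 92.7 and highest at 167 CPM in WT, and lowest at 158, median 220.4 and highest at 258 CPM in KO. WT T34 replicate 1 was again the only WT library that reached the KO range, and the next was at 134 CPM. The log2 fold change was 1.13 (SE 0.06, edgeR adjusted p 5.31e-18), or 2.18-fold, and 1.16 (SE 0.05) without that library.

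Mt-nd4l (ENSRNOG00000031053), a small subunit next to Mt-nd6 in the complex, was the 1 gene not called over all times. It was lowest at 42.3, median 50.3 and highest at 261 CPM in WT, and lowest at 34.9, median 72.1 and highest at 85.9 CPM in KO. The ranges overlapped with and without WT T34 replicate 1. Its log2 fold change was 0.21 (SE 0.12, edgeR adjusted p 0.0986) with all libraries, with a 95% interval of -0.02 to 0.45. It was 0.37 (SE 0.06, adjusted p 1.55e-06) without WT T34 replicate 1 and -0.09 (adjusted p 0.477) with library totals in place of TMM, so its direction depended on the scaling. With that library left out, 7 of the 7 genes were thus called higher, against 44.8% of all genes.

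The 7 genes therefore fell into a pair of sets by size. Mt-nd1, Mt-nd2, Mt-nd4 and Mt-nd6 had log2 fold changes of 2.34 to 2.99, and Mt-nd3, Mt-nd4l and Mt-nd5 of 0.21 to 1.13. Each set held genes of both parts of the membrane arm. With library totals the log2 fold changes of Mt-nd1, Mt-nd2, Mt-nd4 and Mt-nd6 were 2.39, 2.68, 2.11 and 2.04, and those of Mt-nd3 and Mt-nd5 were 0.83 and 0.49. All 6 were still called higher. Without WT T34 replicate 1, 6 of the 7 genes had no overlap between the 21 KO and 20 WT libraries, all 6 higher in KO. Over all genes 21.5% were higher in KO without overlap in these libraries. With all 42 libraries 0 of the 7 genes were free of overlap, against 8.62% of all genes higher without overlap.

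Another RNA moved with the genotype in the same direction. Among identifiers with a mean of at least 10 CPM, ENSRNOG00000043866 had the highest fold change in KO over all times. It took 15.8% to 19.0% of all counts in KO libraries, against 0.0251% to 0.251% in WT libraries. On average over the 42 libraries it was also the most abundant identifier. The second, ENSRNOG00000030478, held 1.81% to 2.37% in KO and 0.00504% to 0.127% in WT. Neither could be paired with a symbol here. Their part in the result for the 7 genes was not tested. With both identifiers left out before TMM scaling, 6 of the 7 genes were still called higher in KO over all times. Their log2 fold changes were then 0.79 for Mt-nd5 to 2.99 for Mt-nd2.

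Because the 7 genes changed by unequal factors, their shares of the genes' summed counts differed between genotypes, and these shares do not depend on library scaling. The share of Mt-nd5 was 61.9% ± 2.22 in WT and 38.8% ± 4.59 in KO (SD, n = 21 each, over all times). The shares of Mt-nd1 and Mt-nd2 were 10.1% ± 1.78 and 7.01% ± 2.18 in WT, and 23.8% ± 2.92 and 20.5% ± 2.78 in KO (SD, n = 21 each). Mt-nd6 made up 2.09% ± 0.225 in WT and 3.74% ± 0.161 in KO, and Mt-nd4 1.10% ± 0.437 and 2.17% ± 0.165 (SD, n = 21 each). Mt-nd4l made up 6.33% ± 0.502 in WT and 2.62% ± 0.228 in KO, and Mt-nd3 was 11.5% ± 2.12 and 8.43% ± 0.906 (SD, n = 21 each). With all 42 libraries the WT and KO ranges did not overlap for Mt-nd4l, Mt-nd5 and Mt-nd6. Without WT T34 replicate 1 they were apart for Mt-nd1, Mt-nd2 and Mt-nd4 too, and still overlapped for Mt-nd3. The highest WT shares of Mt-nd1, Mt-nd2 and Mt-nd4 were then 13.05%, 9.739% and 1.267%. Their lowest KO shares were 15.02%, 13.60% and 1.648%. These shares count reads and follow gene length as well as abundance, so each is compared between libraries only, and no test was made of them.

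**Figure D2:**
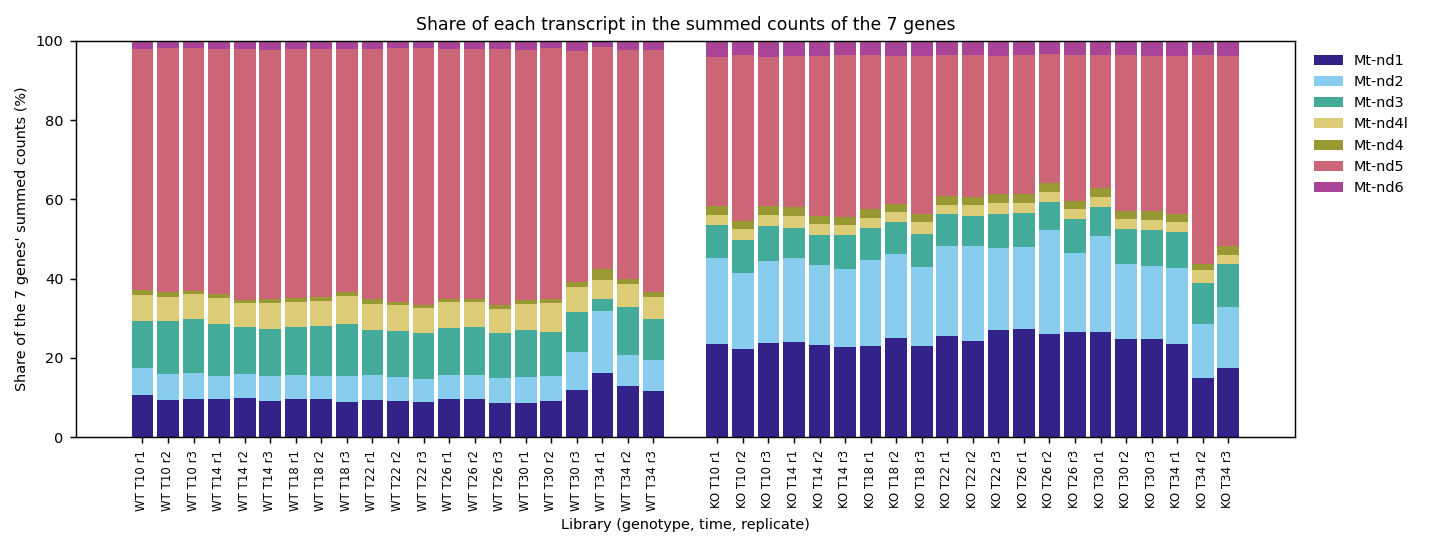
Share of each gene in the summed counts of the 7 genes (y axis, percent) in each library (x axis, by genotype, time and replicate). Mt-nd5 takes 55.9% to 64.8% of each WT bar and 32.4% to 52.6% of each KO bar, and the bars of WT T34 replicate 1 and of KO T34 replicates 2 and 3 differ from those of their genotype.

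Ratios within a library were taken for the light-strand gene and for the pair that shares a messenger RNA. The log2 ratio of Mt-nd6 to Mt-nd5 counts was -5.13 to -4.53 in WT (median -4.90, n = 21) and -3.84 to -3.19 in KO (median -3.36, n = 21). All KO libraries were above all WT libraries, WT T34 replicate 1 included, which lay at -5.07. The other ratios of Mt-nd6 went both ways. The median was higher in KO against Mt-nd3 (-2.47 in WT and -1.14 in KO) and Mt-nd4l (-1.58 and 0.51). It was lower in KO against Mt-nd1 (-2.23 and -2.69), Mt-nd2 (-1.63 and -2.44) and Mt-nd4 (1.07 and 0.75). The ranges of WT and KO overlapped for all of these genes but Mt-nd4l. Without WT T34 replicate 1 they were apart for Mt-nd3 too, at -2.96 to -1.98 in WT and -1.48 to -0.99 in KO. Those for Mt-nd1, Mt-nd2 and Mt-nd4 still overlapped. The log2 ratio of Mt-nd4l to Mt-nd4 counts had a median of 2.70 in WT and 0.22 in KO (n = 21 each). Its range was 2.19 to 3.15 in 20 WT libraries, 0.73 in WT T34 replicate 1 and 0.04 to 0.97 in KO. For this ratio WT T34 replicate 1 therefore lay within the KO range.

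The difference between genotypes was then followed over time. At T10 the levels of Mt-nd1 were 80.4, 72.5 and 80.1 CPM in WT and 674, 612 and 632 CPM in KO, and the groups did not overlap. This held for all 7 genes at T10 (39.6% of all genes were higher without overlap). At this time 6 of the 7 genes were called higher in KO, against 35.1% of all genes. From T10 to T30 the same 6 genes were called higher at each of the 6 times, and Mt-nd4l at T26 only. With WT T34 replicate 1 left out, Mt-nd4l was called higher at T10, T14, T22 and T26 at nearly the same fold changes, with edgeR adjusted p of 0.00164, 0.00132, 0.00221 and 0.000173. Of all genes, 36.0% were called higher at T14, 34.8% at T18 and 35.6% at T22. The share was 35.3% at T26 and 37.0% at T30. The fold change of Mt-nd2 was 7.82 to 14.8 over these times, that of Mt-nd1 7.43 to 11.8, that of Mt-nd4 6.16 to 9.60 and that of Mt-nd6 4.70 to 7.29. Mt-nd3 was 1.98 to 2.81 times and Mt-nd5 1.75 to 2.25 times higher. For Mt-nd4l the ratio was 1.09 to 1.65, and its call at T26 had an adjusted p of 0.0443. The lowest of these 6 values was that at T30 for 6 genes and that at T18 for Mt-nd3.

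**Figure D3:**
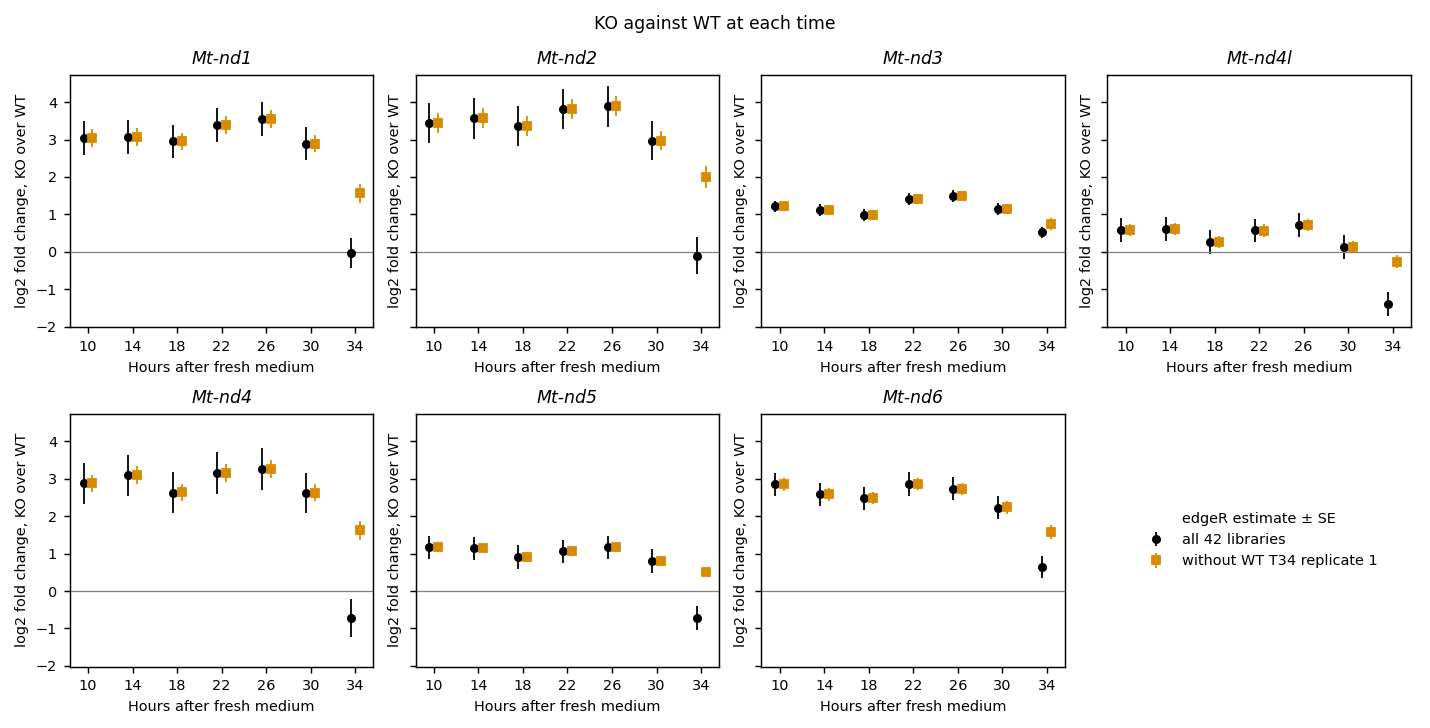
log2 fold change of KO over WT (y axis) at each time (x axis, hours after fresh medium), as edgeR estimates ± SE, for all 42 libraries (black circles) and without WT T34 replicate 1 (orange squares). For all genes the estimate with all libraries is lowest at T34, where those from the 2 sets of libraries part.

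At T34 the picture changed in both genotypes. Mt-nd1 was at 880, 124 and 125 CPM in WT replicates 1, 2 and 3, and at 602, 233 and 270 CPM in KO replicates 1, 2 and 3. Mt-nd2 was at 852, 73.9 and 83.2 CPM in WT and at 494, 211 and 236 CPM in KO, in the same order. WT replicate 1 was thus above all KO libraries, and WT replicates 2 and 3 were below all of them. Mt-nd4 was at 158, 10.7 and 13.2 CPM in WT and at 52.5, 25.6 and 32.0 CPM in KO. Mt-nd6 was at 90.8, 23.1 and 24.8 CPM in WT and at 98.1, 57.0 and 61.0 CPM in KO. For these 4 genes KO replicate 1 was the highest KO library.

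For Mt-nd6, WT replicate 1 lay between KO replicate 1 and the other KO libraries. Mt-nd5 was at 3047, 547 and 650 CPM in WT and at 1023, 816 and 737 CPM in KO. Mt-nd3 was at 167, 114 and 109.5 CPM in WT and at 233, 158 and 168 CPM in KO, so that WT replicate 1 lay inside the KO range. In both genes WT replicates 2 and 3 were below all KO libraries. Mt-nd4l was at 261, 54.5 and 60.6 CPM in WT and at 58.7, 50.3 and 34.9 CPM in KO, where 2 of the 3 KO libraries were below all WT libraries. The ranges of WT and KO overlapped at T34 for all 7 genes, where 22.3% of all genes were higher and 22.7% lower in KO without overlap.

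With all libraries, 3 of the 7 genes were called at T34: Mt-nd3 higher in KO, and Mt-nd4l and Mt-nd5 lower (27.6% of all genes were called higher and 33.1% lower). The log2 fold changes were 0.52 (SE 0.16, edgeR adjusted p 0.00488) for Mt-nd3, -1.39 (SE 0.32, adjusted p 0.000448) for Mt-nd4l and -0.72 (SE 0.31, adjusted p 0.0480) for Mt-nd5. Those of Mt-nd1, Mt-nd2, Mt-nd4 and Mt-nd6 were -0.03, -0.10, -0.72 and 0.64 and were not called. Without WT T34 replicate 1, 6 of the 7 genes were called higher in KO at T34 and 0 lower (38.0% of all genes were called higher). Their log2 fold changes were 1.56 for Mt-nd1, 2.00 for Mt-nd2, 0.74 for Mt-nd3, 1.62 for Mt-nd4, 0.52 for Mt-nd5 and 1.59 for Mt-nd6. Mt-nd4l was then at -0.26 (SE 0.18, edgeR adjusted p 0.186). The calls for Mt-nd4l and Mt-nd5 as lower in KO were not made without that library. Other settings moved the calls at T34 as well. KO replicate 1 left out at all times gave 1 called gene, Mt-nd4l, and an edgeR fit of only the 6 libraries of T34 gave 0, with 0 at an unadjusted p under 0.05 and log2 fold changes of 0.52 for Mt-nd3, -1.39 for Mt-nd4l and -0.72 for Mt-nd5. The call for Mt-nd5 was kept in 10 of 60 alternatives. At T34 WT and KO libraries of the same replicate number deviated together (r of 0.2265, 0.128 and 0.1408), and the replicate number was therefore also fitted as a block, common to all times. Mt-nd5 was then not called (-0.65, edgeR adjusted p 0.0724), and Mt-nd6 was called higher in KO (0.69, edgeR adjusted p 0.0266).

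Whether the KO difference depended on time was tested over the 7 times with a genotype-by-time term. This interaction passed the test for 7 of the 7 genes, against 39.3% of all genes, with edgeR adjusted p from 0.000260 for Mt-nd1 to 0.0128 for Mt-nd3. It was again called for all 7 genes without WT T34 replicate 1 (54.0% of all genes), with adjusted p from 0.000171 for Mt-nd1 to 0.0295 for Mt-nd3. When all T34 libraries were left out, it was called for 0 of the 7 genes, and 3 of the 7 had an unadjusted p under 0.05. Over all genes 41.1% were then called. Left out at all times, KO replicate 2 gave 3 and KO replicate 3 gave 4 called genes.

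**Figure D4:**
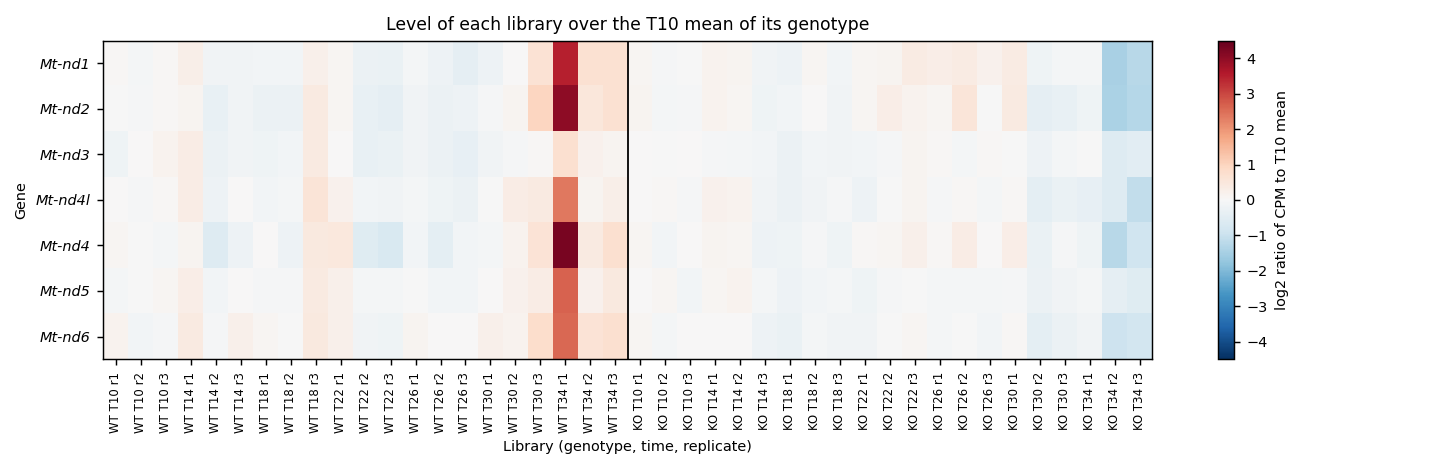
Level of each gene (rows) in each library (columns, by genotype, time and replicate) as the log2 ratio of its CPM to the mean of the 3 T10 libraries of the same genotype, from blue (lower) to red (higher). WT T34 replicate 1 is the darkest red column, and KO T34 replicates 2 and 3 are the darkest blue.

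Within WT the change lay at the end of the series. Relative to the mean at T10, WT T34 replicate 1 was higher by 19.4 times for Mt-nd4, 16.3 for Mt-nd2, 11.3 for Mt-nd1, 6.35 for Mt-nd5, 6.03 for Mt-nd6, 5.20 for Mt-nd4l and 1.65 for Mt-nd3. WT T34 replicates 2 and 3 were higher by 1.59 and 1.61 times for Mt-nd1 and by 1.53 and 1.65 times for Mt-nd6. WT T30 replicate 3 was higher by 1.59 times for Mt-nd1 and 1.94 times for Mt-nd2. In that library and in WT T34 replicates 1, 2 and 3, the level of ENSRNOG00000043866 was 1622, 2141, 673 and 401 CPM, against a median of 274 CPM over WT, and that of ENSRNOG00000030478 was 1167, 710, 343 and 147 CPM, against a median of 73.7 CPM. WT T10 replicate 1 was also above these medians, at 486 and 270 CPM, and above WT T34 replicate 3. The summed level of the 7 genes in WT T10 replicate 1 was 752 CPM, against a median of 765 CPM over WT. The part of these RNAs in the change was not tested.

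T34 against T10 in WT was called for 6 of the 7 genes, all higher at T34, against 22.9% of all genes called higher. A fit of only the 6 WT libraries of T10 and T34 called 0 of the 7 by edgeR, with 4 at an unadjusted p under 0.05. No share of all genes is available for that fit. Mt-nd3 had a log2 fold change of 0.37 (SE 0.16, edgeR adjusted p 0.0621). Without WT T34 replicate 1, 2 of the 7 were called (17.1% of all genes higher): Mt-nd1 at 0.68 (SE 0.24, adjusted p 0.0283) and Mt-nd6 at 0.67 (SE 0.19, adjusted p 0.00529). The other 5 were at 0.15 to 0.59 and did not pass the test. Any change over the 7 times in WT was called for 7 of the 7 genes (37.5% of all genes), and for 2 of the 7, Mt-nd1 and Mt-nd6, without that library (44.1% of all genes). It was called for 0 of the 7, with 2 at an unadjusted p under 0.05, without the T34 libraries (33.3% of all genes).

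Within KO the 3 libraries at T34 differed among themselves. Relative to the mean at T10, Mt-nd1 was at 0.94, 0.36 and 0.42 times in KO T34 replicates 1, 2 and 3, and Mt-nd2 at 0.87, 0.37 and 0.42 times. Mt-nd4 was at 0.87, 0.43 and 0.53 times and Mt-nd6 at 0.90, 0.52 and 0.56 times. Mt-nd5 was at 0.95, 0.76 and 0.68 times, Mt-nd3 at 0.997, 0.68 and 0.72 times and Mt-nd4l at 0.78, 0.67 and 0.46 times. KO replicate 1 was nearest to T10 in each gene, and replicates 2 and 3 were below all T10 libraries in each gene. For 5 genes, all but Mt-nd3 and Mt-nd5, replicate 1 was below all T10 libraries as well, so that the groups did not overlap (31.5% of all genes were lower at T34 without overlap). The share of Mt-nd1 in the 7 genes' counts was 15.0% and 17.5% in replicates 2 and 3, the lowest of the KO libraries, and that of Mt-nd5 was 52.6% and 47.9%. ENSRNOG00000043866 was at 168785 and 177751 CPM in these libraries and at 208877 CPM in replicate 1. Similar levels of it, 171690 and 172897 CPM, were seen in KO T18 replicates 1 and 3. The summed level of the 7 genes was 2389 and 2524 CPM there, against 1552 and 1539 CPM in KO T34 replicates 2 and 3. The part of this RNA in the change was not tested.

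With all libraries, T34 against T10 in KO was called for 0 of the 7 genes by edgeR and for 0 by DESeq2, which gave no adjusted p for Mt-nd2. By edgeR 2 of the 7 had an unadjusted p under 0.05. Over all genes 17.5% were called lower. The log2 fold changes were -0.86 to -0.33 over the 7 genes. Without WT T34 replicate 1, whose spread enters the common fit, 7 of the 7 were called lower at T34 (27.0% of all genes) at nearly the same fold changes, from -0.86 (SE 0.24, edgeR adjusted p 0.00324) for Mt-nd2 to -0.33 (SE 0.13, adjusted p 0.0407) for Mt-nd3. A fit of only the 6 KO libraries of T10 and T34 called 7 of the 7 lower as well, with no share of all genes to set beside this count. Any change over the 7 times in KO was called for 0 of the 7 genes (36.8% of all genes), with 0 at an unadjusted p under 0.05, for 0 by DESeq2, and for 5 without WT T34 replicate 1 (60.6% of all genes).

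The T34 to T10 change in KO was set against that in WT in a direct test, a comparison added after the values were seen. The change was lower in KO than in WT for 7 of the 7 genes, against 21.7% of all genes called lower. The difference in log2 fold change ran from -3.61 (SE 0.74, edgeR adjusted p 0.000319) for Mt-nd4 to -0.69 (SE 0.22, adjusted p 0.0139) for Mt-nd3. It was called lower for 6 of the 7 (20.5% of all genes) without WT T34 replicate 1, from -1.48 (SE 0.32, adjusted p 0.000453) for Mt-nd1 to -0.65 (SE 0.17, adjusted p 0.00323) for Mt-nd5. Mt-nd3 was then at -0.48 (SE 0.20, adjusted p 0.0591).

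A 24 h rhythm was tested in each genotype with a cosine and a sine term. It was called for 0 of the 7 genes in WT (1.81% of all genes), where 5 had an unadjusted p under 0.05, and for 0 of the 7 in KO (34.6% of all genes), where 0 did. DESeq2 called 0 in each genotype too, but gave an adjusted p for only 2 of the 7 in WT. In KO the fitted amplitude, the distance on the log2 scale from mean to peak, was 0.05 for Mt-nd5 to 0.25 for Mt-nd1. In WT it was 0.21 for Mt-nd3 to 1.08 for Mt-nd4 with all libraries, and 0.08 for Mt-nd5 to 0.26 for Mt-nd2 without WT T34 replicate 1. Without the T34 libraries a rhythm was called for 0 of the 7 in WT (24.2% of all genes) and 0 in KO (25.5% of all genes). Without WT T34 replicate 1 it was called for 0 of the 7 in WT (13.8% of all genes), where 3 had an unadjusted p under 0.05. A difference in rhythm between genotypes was called for 3 of the 7, Mt-nd1, Mt-nd2 and Mt-nd4 (13.1% of all genes), for 2, Mt-nd1 and Mt-nd2, without that library (27.4% of all genes), and for 0, with 0 at an unadjusted p under 0.05, without the T34 libraries (30.3% of all genes). The sampled span of 24 h holds no repeat of a cycle.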

How the data were processed

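The authors deposited a table of whole-number counts per gene and library for each genotype, without normalization. Counting was by featureCounts, per the submitters' processing notes, and libraries were strand-specific with paired reads of 150 bp, per the labels' protocols. The aligner, genome build, annotation, strand setting and rule for listing genes are not given in the sources used here. Of 13776 identifiers, 0 matched a symbol in the RefSeq table, so the other gene lists were not analysed here. The members and lists were chosen with earlier results of these data known. The symbols of the 7 genes come with their identifiers from the choice of genes. All 7 are named, and no gene like them in pattern could be named by symbol.

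From the counts, edgeR 4.0.16 in R 4.3.3 fitted 14 group means to 42 libraries with TMM scaling, by its quasi-likelihood F test with Benjamini-Hochberg adjustment over all genes. No gene was lost to filterByExpr. Cosine and sine terms of a 24 h period were used for rhythm, in the 21 libraries of a genotype or in all 42. The tests were checked on simulated data. Alternatives were other scalings and filters, DESeq2 1.42.0 (a gene whose fit did not converge has no p), the replicate number as a block, left-out libraries, smaller fits, and other rhythm models. Shares of all genes called are given only for the main fits and those without WT T34 replicate 1 or without the T34 libraries. Counts of called genes from the other alternatives have no such share beside them and are a description. Replicate pairs differed by a chi-square per degree of freedom of 5.48 or more in all 42 pairs, so each library counted once. The highest values were 694.4 and 375, for WT T34 replicate 1 against replicates 2 and 3. Total counts were 34.5 to 68.8 M per library.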

Additional observations from a re-analysis of the deposited data

Results flagged for a closer look

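The course over time of the 7 genes differed between WT and KO by a test of that difference in 17 results. The interaction of genotype and time had edgeR adjusted p-values of 0.000260 for Mt-nd1, 0.000497 for Mt-nd2, 0.0128 for Mt-nd3, 0.00417 for Mt-nd4l, 0.000738 for Mt-nd4, 0.00816 for Mt-nd5 and 0.000594 for Mt-nd6. The change from T10 to T34 was lower in KO than in WT, with edgeR adjusted p-values of 0.000176 for Mt-nd1, 0.000243 for Mt-nd2, 0.0139 for Mt-nd3, 0.00113 for Mt-nd4l, 0.000319 for Mt-nd4, 0.00148 for Mt-nd5 and 0.000111 for Mt-nd6. The 24 h rhythm differed between genotypes with edgeR adjusted p-values of 0.0315 for Mt-nd1, 0.0283 for Mt-nd2 and 0.0416 for Mt-nd4. These 3 families of tests share the T34 libraries, and without them the interaction and the rhythm difference were called for 0 of the 7 genes, with 3 and 0 at an unadjusted p under 0.05. The test of the T10 to T34 change was added after the values were seen. Without WT T34 replicate 1, Mt-nd3 was not called in that test (edgeR adjusted p 0.0591). Mt-nd4 was then not called for the rhythm difference (edgeR adjusted p 0.138). The other flagged results were still called without that library. With 1 replicate left out at all times, the rhythm difference was called for 0 or 1 gene.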

How the results depend on the processing

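Of 7290 alternative values for 143 results, 6955 were rated as unchanged. For a gene in a test this meant the same side of the threshold and, where the test has one, the same direction. A count of called genes could differ a little from the main count. A log2 ratio of shares had to keep its direction and differ by less than the SD within groups. Of the unchanged values, 4675 for single genes and 681 for counts or share ratios came from leaving out a replicate or library. Many of these libraries were outside the comparison and entered it only through the common fit, or not at all. The tally is therefore no measure of how firm the results at T34 are. Leaving out each of the 42 libraries, the joint setting of library totals without WT T34 replicate 1, leaving out the 2 most raised identifiers or all T34 libraries, and the direct test of T34 against T10 between genotypes were added after the data were seen. With library totals the log2 fold change of Mt-nd4l in KO against WT was -0.09266 over all times, -0.02936 at T18 and -0.1509 at T30. Library totals without WT T34 replicate 1 gave -0.02919 at T18 and -0.1502 at T30 for Mt-nd4l. At T34 that setting called 7 genes, with 1.326 for Mt-nd1, 1.761 for Mt-nd2, 1.388 for Mt-nd4 and 0.2885 for Mt-nd5, called 2 genes for the change over time in WT and 2 for T34 against T10 in WT, and called 5 and 6 for the same in KO. With single replicates or libraries left out, the log2 fold change of Mt-nd4l at T30 ranged from -0.03164 to 0.2257 (-0.01537 without WT replicate 1 and -0.03155 without KO T30 replicate 1). At T34 it ranged from -0.5809 to 1.57 for Mt-nd1, -0.5889 to 2.006 for Mt-nd2, -1.201 to 1.63 for Mt-nd4 and -1.084 to 0.5266 for Mt-nd5 (0.521 without WT T34 replicate 1). Mt-nd1 and Mt-nd2 at T34 were 0.2121 and 0.1184 without KO replicate 2, and 0.1499 and 0.06775 without KO replicate 3.

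Over all left-out replicates and libraries, the genes called were 6 to 7 for KO against WT over all times, 1 to 6 at T34, 3 to 7 for the interaction, 2 to 7 for the change over time in WT, 0 to 5 for that in KO, 2 to 7 for T34 against T10 in WT, 0 to 7 for that in KO and 0 to 2 for the rhythm difference. The deciding libraries were WT T34 replicate 1, KO replicate 1 (1 gene called at T34), KO replicates 2 and 3 (3 and 4 for the interaction) and KO T34 replicate 1 (3 for T34 against T10 in KO). For the rhythm difference, leaving out WT replicate 2 gave 1 and each other replicate gave 0. Fits of only the 6 libraries compared called 0 genes at T34, 0 for T34 against T10 in WT and 7 for that in KO, and the 21 KO libraries alone called 6 for the change over time. Without the T34 libraries 0 genes were called for the interaction, the change over time in WT and the rhythm difference. A 28 h period called 3 genes for rhythm in WT and 5 for its difference, a 20 h period 0 for the difference, and a linear term 4 in KO and 7 for the difference. As shares of all counts instead of the 7 genes' counts, the log2 ratios of KO to WT were 2.08, 2.23, 0.82, -0.18, 1.55, 0.36 and 1.92 for Mt-nd1, Mt-nd2, Mt-nd3, Mt-nd4l, Mt-nd4, Mt-nd5 and Mt-nd6. The cause was not tested. Replicate numbers carry no stated pairing. Of 21 same-numbered WT and KO pairs, 3 had a correlation over 0.1, and these were the 3 pairs at T34. For 22 of 42 libraries, the mean correlation with the libraries of other groups was highest for their own number out of the 3 replicate numbers. Over pairs of libraries from different groups, the mean r was 0.00951 for the same number and -0.00487 for other numbers. With the replicate block, Mt-nd1 and Mt-nd2 at T34 were 0.06 and 0.03444, and 2 genes were called for the rhythm difference.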

Other observations

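Over the means of the 14 groups, centred within each genotype, the profile of 216 of 13769 other genes correlated with the mean profile of the 7 genes at an r of at least 0.9. Without WT T34 replicate 1 this held for 5 genes. The points share libraries, so the values are a description. ENSRNOG00000031979 had the highest r in both sets, 0.98 with all libraries and 0.93 without that one, and could not be paired with a symbol.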
